A study of Mus musculus with 4 samples.

Results

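The genes described here are 6 genes of antigen presentation by major histocompatibility complex (MHC) class II: H2-Aa, H2-Ab1, H2-Eb1, H2-DMa, Cd74 and Ciita. They were taken by gene symbol from the annotation of the array, which gives them 14 probe sets, among 18193 genes that have a probe set of their own. The study measured 4 sorted populations of cultured mouse CD4 T cells, all from C57BL/6 mice aged 8 to 10 weeks, with spleen and lymph nodes as the tissue, on 1 Affymetrix expression array each. exFoxp3Th17 cells were IL-17+Foxp3- cells grown under Th17 conditions from Foxp3+ CD4 T cells, and Th17 cells carried the same sort markers but were grown from naive CD4 T cells. Treg cells were IL-17-Foxp3+ cells grown from Foxp3+ CD4 T cells with IL-2, and Th0 cells were IL-17-Foxp3- cells grown from naive CD4 T cells under Th0 conditions. The gates used GFP for IL-17 and an APC signal for Foxp3. No population was replicated, so each difference below lies between 2 arrays, no spread between samples can be given and no test was made.

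Class II molecules carry peptides from the endosomal pathway to the cell surface, where CD4 T cells read them. An alpha and a beta chain pair in the endoplasmic reticulum on the invariant chain Cd74. Proteases trim Cd74 down to a short peptide that H2-DM then exchanges for antigen. The genes are switched on together by the coactivator Ciita, which is recruited to a set of promoter elements called the W/S, X and Y boxes. B cells, dendritic cells and macrophages make class II, whereas mouse T cells are generally described as making little of their own.

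The shared promoter elements can be read in the RefSeq sequence of the mouse genome (build GRCm38.p6), and are shown because genes that hold them differed in their order across the arrays. A window of 250 bases before to 50 bases after the annotated start was searched for the X box core GCAAC and the Y box core ATTGG on both strands, and a spaced pair was counted where GCAAC preceded ATTGG on the same strand by 20 to 40 intervening bases. The 2 cores do not overlap each other. ATTGG was in 37.4% of all 32544 windows and GCAAC in 35.1%, while the spaced pair was in 1.00%. Windows were read for 3 of the 6 members, and 2 of them, H2-Aa and H2-Eb1, held the pair. H2-Ab1 and Ciita had no window in the sequences used and Cd74 was not read, so the promoter of H2-Ab1 is not described here. Of 5 further class II genes with a window, 3 held it (H2-Oa, H2-Ob and H2-Eb2), and of 12 class I presentation genes none did. The stretches below run 5′ to 3′ on the strand of each gene, with both cores in capitals.

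H2-Aa: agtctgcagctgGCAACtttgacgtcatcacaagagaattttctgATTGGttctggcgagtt
H2-Eb1: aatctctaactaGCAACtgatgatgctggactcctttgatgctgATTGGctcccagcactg
H2-Eb2: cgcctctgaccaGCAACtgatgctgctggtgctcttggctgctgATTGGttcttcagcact
H2-Oa: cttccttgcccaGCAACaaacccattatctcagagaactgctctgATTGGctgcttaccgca
H2-Ob: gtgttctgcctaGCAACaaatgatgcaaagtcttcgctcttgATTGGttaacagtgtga

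These lie at chr17:34287855-34287916 on the minus strand for H2-Aa, and on the plus strand at chr17:34305764-34305824 for H2-Eb1, chr17:34325531-34325591 for H2-Eb2, chr17:34092291-34092352 for H2-Oa and chr17:34238806-34238864 for H2-Ob. The cores were 28 bases apart in H2-Aa and H2-Oa, 27 in H2-Eb1 and H2-Eb2 and 25 in H2-Ob. In H2-Aa the ATTGG core began 48 bases before the start and in H2-Eb1 59 bases before it. H2-DMa had 2 windows, neither with the pair. A match of these letters is a description of the sequence and not a measurement of factor binding. Only these exact letters were searched for, so a window without the pair may still hold a variant of the boxes.

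Signals are the authors' MAS5 intensities, on a linear scale. A floor was set at the median of all non-control probe sets, 12.1, and values below it were raised to it before ratios were formed. A gene was read from its brightest probe set, and was called higher or lower where its ratio reached 2-fold with at least 1 of the pair of arrays above the floor. Where the dimmer array lay below the floor, the fold is a bound and is given as at least that size. Of the 14 probe sets, 3 were above the floor on all 4 arrays, 7 on some and 4 on none. Of the 6 genes, 4 were above the floor in exFoxp3Th17, 4 in Th17, 5 in Treg and 3 in Th0. Across all genes these shares were 57.3%, 56.1%, 57.6% and 57.3% in the same order.

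The arrays themselves were checked against their labels first. Foxp3 read 585 in Treg and below the floor in exFoxp3Th17 (8.03), Th17 (6.20) and Th0 (4.25), as gated. Il17a was below the floor on all 4 arrays, at 7.09 to 9.81, and so did not separate the gates. All 9 measured CD4 T cell markers lay above the floor on every array. Cd247, the zeta chain of the T cell receptor, was 3.03-fold lower in Th17 than in Th0 by its brightest probe set and lower by less than 2-fold in 2 others, and it was not called with the mean of its probe sets. Cd4, the class II coreceptor, was at 98.1 in exFoxp3Th17, 81.2 in Th17, 48.3 in Treg and 110 in Th0. The exFoxp3Th17 array also differed in sex-linked RNA. Its Xist signal was 3766, against 7.41 to 10.8 on the others, and its signal for the Y-linked Eif2s3y was 4.66, against 654 to 876, so every comparison with exFoxp3Th17 crosses this difference, whose part in the results was not tested.

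H2-Ab1, the beta chain of the I-A molecule, was the member with the widest range. Its representing probe set read 19.7 in exFoxp3Th17, 220 in Th17, 132 in Treg and 29.9 in Th0. Th17 and Treg were thus high, and exFoxp3Th17 and Th0 low. In exFoxp3Th17 the gene was 11.1-fold lower than in Th17, and 46 of the 11769 genes above the floor on any array fell further. Against Treg it was 6.67-fold lower in exFoxp3Th17, with 108 genes falling further. In Th17 it was 7.35-fold higher than in Th0, with 141 genes rising further, and in Treg it was 4.41-fold higher than in Th0, with 145 rising further. In a sorted population read as bulk RNA, fewer cells that hold a transcript and less of it per cell cannot be told apart.

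By the naming of Affymetrix, probe sets ending in _x_at or _s_at can pick up other transcripts, and among those of H2-Ab1 the representing one is an _s_at and the dimmest an _x_at. Both other H2-Ab1 probe sets showed the same order of arrays. The second read 1.32 in exFoxp3Th17, 147 in Th17, 61.9 in Treg and 18.6 in Th0. The third read 0.525 in exFoxp3Th17, 76.6 in Th17, 29.7 in Treg and 6.06 in Th0. All 3 were highest in Th17 and lowest in exFoxp3Th17, and each differed by 2-fold or more in each of the 4 comparisons. As a measure of noise within arrays, the log2 ratios from 2 probe sets of the same gene were set against each other in 2515 genes. Their difference had a robust SD between 0.41 and 0.50 in each comparison. This SD is pooled over those genes and holds no variation between samples. It gives no error for the ratios of H2-Ab1, where only the representing probe set was above the floor on all 4 arrays. The log2 ratios of H2-Ab1 were -3.48 in exFoxp3Th17 against Th17, 2.88 in Th17 against Th0, -2.74 in exFoxp3Th17 against Treg and 2.14 in Treg against Th0.

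**Figure D1:**
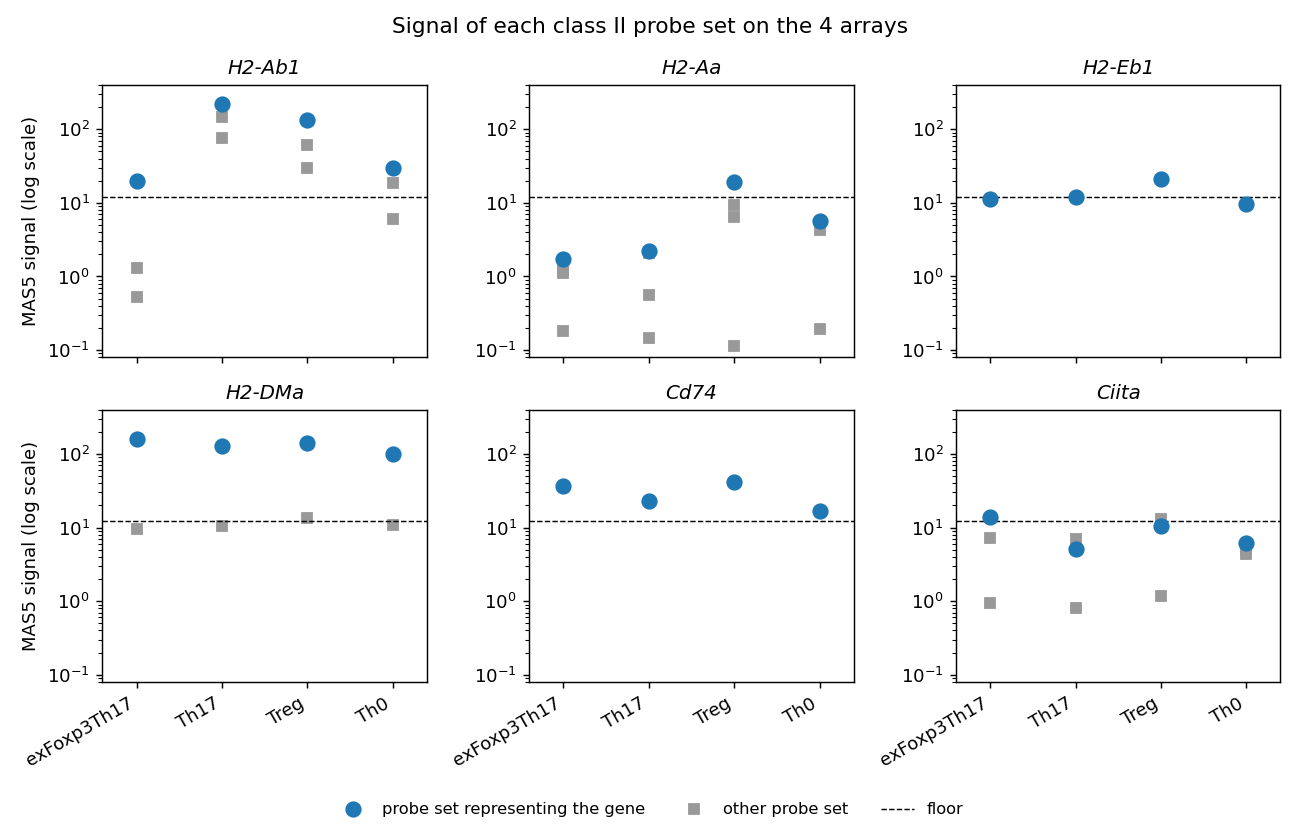
MAS5 signal (log scale) of the 14 class II probe sets on the 4 arrays, 1 panel per gene; blue circles are the probe set that represents the gene, grey squares its other probe sets and the dashed line the floor of 12.1. H2-Ab1 reaches 220 in Th17 and 132 in Treg while H2-Aa stays under the floor in exFoxp3Th17, Th17 and Th0.

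The partner of H2-Ab1 in the I-A molecule, H2-Aa, did not share this pattern. Its brightest probe set read 1.72 in exFoxp3Th17, 2.19 in Th17, 19.2 in Treg and 5.61 in Th0, so it was above the floor in Treg alone. Its 3 other probe sets were below the floor on all 4 arrays, from 0.113 to 9.29. In Th17, where H2-Ab1 was at its highest, all 4 H2-Aa probe sets read 2.19 or less. H2-Aa was at least 1.59-fold higher in Treg than in Th0 and at least 1.59-fold lower in exFoxp3Th17 than in Treg. Both are bounds set by the floor, so neither was called, but the differences may be larger. Under 3 of 11 alternative settings H2-Aa was called lower in exFoxp3Th17 against Treg, and under 2 higher in Treg against Th0.

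H2-Eb1, the beta chain of the I-E molecule, read 11.3 in exFoxp3Th17, 12.2 in Th17, 20.8 in Treg and 9.57 in Th0. It was highest in Treg, by at least 1.72-fold over Th0, and the other 3 arrays lay close to the floor. H2-Ea, the alpha chain gene of I-E, which is defective in the C57BL/6 strain, was below the floor on all 4 arrays at 2.54 to 5.78. Treg was thus the only array with both I-A chain genes above the floor, and no array had both I-E chain genes above it.

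Cd74, the invariant chain, was above the floor on every array. It read 36.4 in exFoxp3Th17, 23.1 in Th17, 41.4 in Treg and 16.7 in Th0. Both populations from Foxp3+ precursors were higher than both from naive precursors. The difference reached 2-fold only in Treg against Th0, at 2.48-fold higher in Treg, while exFoxp3Th17 was 1.58-fold higher than Th17. Cd74 has 1 probe set, and its order of arrays differs from that of H2-Ab1, which was lowest where Cd74 was second highest.

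H2-DMa, the alpha chain of the peptide editor, changed least among the members above the floor on all arrays. It read 158 in exFoxp3Th17, 130 in Th17, 140 in Treg and 101 in Th0, a 1.57-fold range from highest to lowest. Its second probe set lay at 9.58 to 13.4, around the floor. The beta chain gene H2-DMb2 read 14.9 in exFoxp3Th17, 17.5 in Th17, 20.2 in Treg and 7.55 in Th0, with no 2-fold difference once the floor was applied.

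Ciita, the coactivator itself, was low, with 1 probe set just above the floor in exFoxp3Th17 and another just above it in Treg. Its brightest probe set read 14.1 in exFoxp3Th17, 5.15 in Th17, 10.6 in Treg and 6.20 in Th0. A second read 7.13 in exFoxp3Th17, 6.97 in Th17, 13.1 in Treg and 4.42 in Th0. The third was at 0.796 to 5.05. In Th17, the array with the highest H2-Ab1, all 3 Ciita probe sets were below the floor.

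The calls among the 6 members stand here beside the share of all genes called the same way. In exFoxp3Th17 against Th17, 1 of 6 was lower (H2-Ab1) and none higher, where 7.27% of all genes were called lower and 7.48% higher. In Th17 against Th0, 1 of 6 was higher (H2-Ab1) and none lower, with 8.22% of all genes higher and 6.88% lower. In exFoxp3Th17 against Treg, 1 of 6 was lower (H2-Ab1) and none higher, with 9.94% lower and 11.3% higher among all genes. In Treg against Th0, 2 of 6 were higher (H2-Ab1 and Cd74) and none lower, with 5.56% of all genes higher and 4.95% lower. The median log2 ratios of the 6 members were 0.11, 0.19, -0.42 and 0.72 in these 4 comparisons, beside medians of 0.03, -0.02, 0.02 and -0.01 over all genes above the floor. The comparisons share arrays, so their values are not independent of each other.

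In the annotated order of chromosome 17, H2-Ab1 lies between H2-Ob and H2-Aa, and neither was called in its direction in any comparison. H2-Eb1 (log2 ratios of -0.78 to 0.78) and H2-DMb2 (-0.44 to 0.74) differed by less than 2-fold with the floor applied. By its brightest probe set, H2-DMb2 had the sign of H2-Ab1 in every comparison. Of 2 other H2-DMb2 probe sets above the floor, 1 had that sign in each comparison with exFoxp3Th17. H2-Eb1 and H2-Aa had the sign of H2-Ab1 in both comparisons with Treg. At the floor, H2-Eb1 stood at only -0.01 in exFoxp3Th17 against Th17 and 0.01 in Th17 against Th0. Several of these ratios are bounds set by the floor. H2-Ob, a chain of the H2-DM modulator H2-DO, read 29.7 in exFoxp3Th17, 27.9 in Th17, 53.4 in Treg and 59.4 in Th0, and was 2.13-fold lower in Th17 than in Th0. H2-Oa, the other chain of H2-DO, was highest in exFoxp3Th17 (244), followed by Th0 (175), Th17 (103) and Treg (74.8). It was 2.36-fold higher in exFoxp3Th17 than in Th17 and 3.26-fold higher than in Treg, the opposite direction to H2-Ab1 in both comparisons, and 2.33-fold lower in Treg than in Th0. H2-Oa and H2-Ob each rest on a single probe set of their own. H2-Eb2 was above the floor in Th0 alone, at 12.3.

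**Figure D2:**
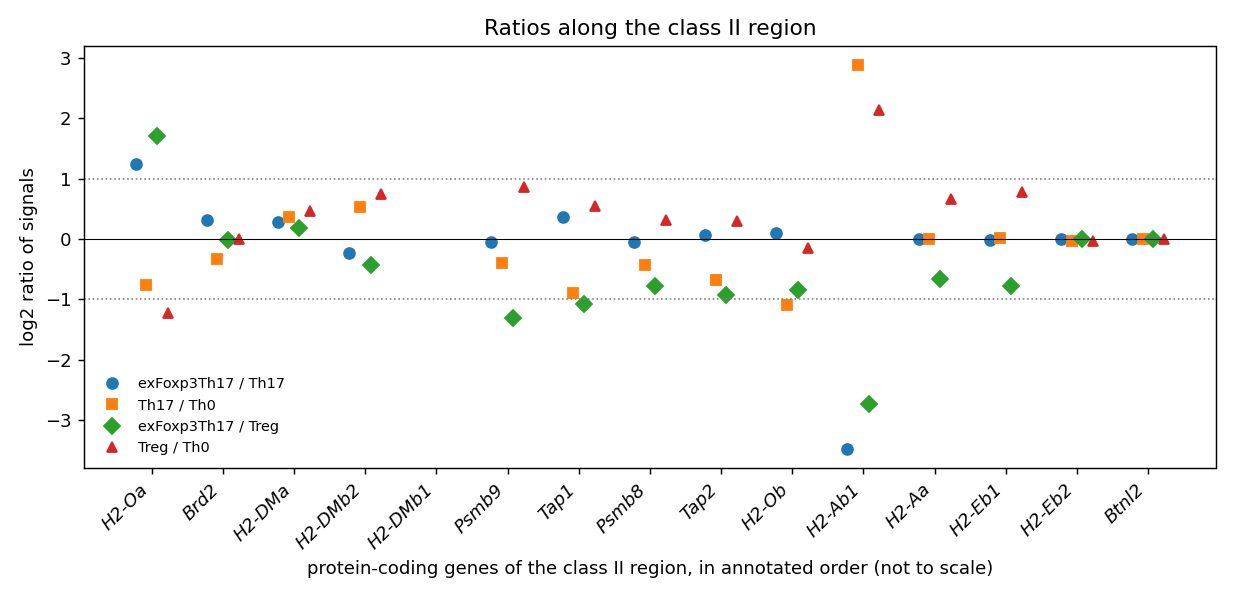
Log2 ratio of signals (y axis) in the 4 comparisons for 15 protein-coding genes of the class II region in annotated order, not to scale; genes below the floor on both arrays plot at 0, dotted lines mark 2-fold and H2-DMb1 has no probe set of its own. H2-Ab1 stands at -3.48 to 2.88 between H2-Ob and H2-Aa, which stay between -1.09 and 0.67.

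The class I genes in the same region served as a comparison. Psmb9, an immunoproteasome subunit, read 700.2 in exFoxp3Th17, 726 in Th17, 1746 in Treg and 961 in Th0. Tap1, a subunit of the peptide transporter, read 405 in exFoxp3Th17, 316 in Th17, 859 in Treg and 589 in Th0. Both were highest in Treg, and they were 2.49-fold (Psmb9) and 2.12-fold (Tap1) lower in exFoxp3Th17 than in Treg. Over the 14 class I presentation genes, all above the floor on every array, none was called in exFoxp3Th17 against Th17 or in Treg against Th0. Among all genes, 7.48% were higher and 7.27% lower in the first of these, and 5.56% and 4.95% in the second. In Th17 against Th0 1 was lower (Psmb10, 2.05-fold), beside 6.88% of all genes. In exFoxp3Th17 against Treg 2 were lower, beside 9.94% of all genes. The median log2 ratios of the class I genes were -0.01 in exFoxp3Th17 against Th17, -0.24 in Th17 against Th0, -0.63 in exFoxp3Th17 against Treg and 0.36 in Treg against Th0. By their brightest probe sets, the class I light chain B2m stayed between 4426 and 5152 and the heavy chain H2-K1 between 2914 and 3704. Each of 3 other H2-K1 probe sets above the floor was lower in exFoxp3Th17 than in Treg, 2 of them by 2-fold or more. Of 6 other H2-D1 probe sets, 3 were lower by 2-fold or more in that comparison. Likewise, 3 of 6 were higher by 2-fold or more in Treg than in Th0. With the probe set of the largest range, 3 class I genes were called in exFoxp3Th17 against Th17. Nlrc5, the class I coactivator related to Ciita, was highest in Treg (653) with 413 in exFoxp3Th17, 407 in Th17 and 359 in Th0.

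Of 7 genes for factors that bind class II promoters, all above the floor on every array, only Rfx5 was called in any of the 4 comparisons. Rfx5, a subunit of the RFX complex on the X box, read 372 in exFoxp3Th17, 161 in Th17, 82.8 in Treg and 126 in Th0. That is 2.31-fold higher in exFoxp3Th17 than in Th17 and 4.496-fold higher than in Treg, where 7.48% and 11.3% of all genes were called higher. The array with the highest Rfx5 was therefore the one with the lowest H2-Ab1. The NF-Y subunit Nfyb read 294 in exFoxp3Th17, 395 in Th17, 546 in Treg and 424 in Th0, and like the other factors of the list it was not called. Creb1 read 785 in exFoxp3Th17, 520 in Th17, 580 in Treg and 743 in Th0. Rfx5 has 1 probe set.

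Interferon-gamma is the classical inducer of Ciita. Ifng itself was above the floor in Treg alone (25.7, against 1.47 in exFoxp3Th17, 0.256 in Th17 and 1.06 in Th0). Treg was also highest in the receptor chain Ifngr1, which was 2.59-fold higher than in Th0, and in the interferon-induced factor Irf1, which was 2.18-fold higher. In exFoxp3Th17 against Treg both were lower (2.44-fold and 2.57-fold), while the receptor chain Ifngr2 (4.797-fold) and the kinase Jak2 (4.29-fold) were higher. Th17 against Th0 likewise had Ifngr2 (3.76-fold) and Jak2 (2.78-fold) higher. The other Ifngr2 probe set did not differ by 2-fold in that direction in either comparison, and in Th17 against Th0 it did not go the same way. The brightest uncalled genes of the route were the kinase Jak1, at 1369 in exFoxp3Th17, 796 in Th17, 936 in Treg and 1389 in Th0, and the factor Irf2, at 208 to 383. In all, 0 of 7 genes of this route were called in exFoxp3Th17 against Th17, where 7.48% of all genes were higher and 7.27% lower. In Th17 against Th0 2 were higher (8.22% of all genes). In exFoxp3Th17 against Treg 2 were higher and 3 lower (11.3% and 9.94% of all genes). In Treg against Th0 3 were higher (5.56% of all genes).

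Several genes for the processing of the invariant chain and antigen in endosomes were highest in exFoxp3Th17. Ctsl, which encodes cathepsin L, read 726 in exFoxp3Th17, 379 in Th17, 141 in Treg and 114 in Th0. It was 5.16-fold higher in exFoxp3Th17 than in Treg and 3.34-fold higher in Th17 than in Th0. Ctss, the cathepsin that makes the last cuts in the invariant chain in B cells and dendritic cells, read 3557 in exFoxp3Th17, 2307 in Th17, 1698 in Treg and 1481 in Th0. It was 2.10-fold higher in exFoxp3Th17 than in Treg. The asparagine endopeptidase gene Lgmn was 2.75-fold higher in exFoxp3Th17 than in Th17 (138 against 50.2) and 2.52-fold higher than in Treg (54.8). Ifi30, the endosomal thiol reductase, went the other way and was 2.10-fold lower in exFoxp3Th17 (239) than in Treg (502). Ctsd, cathepsin D, was 2.01-fold lower in Th17 (231) than in Th0 (464), while Ctsz, at 689 to 1305, and Ctsb, at 530 to 655, were not called. Of 8 genes on the list, 7 were above the floor on any array. In exFoxp3Th17 against Treg 3 were higher and 1 lower (11.3% and 9.94% of all genes), and in exFoxp3Th17 against Th17 1 was higher (7.48% of all genes). In Th17 against Th0 1 was higher and 1 lower (8.22% and 6.88% of all genes). None was called in Treg against Th0, where 5.56% of all genes were higher and 4.95% lower.

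**Figure D3:**
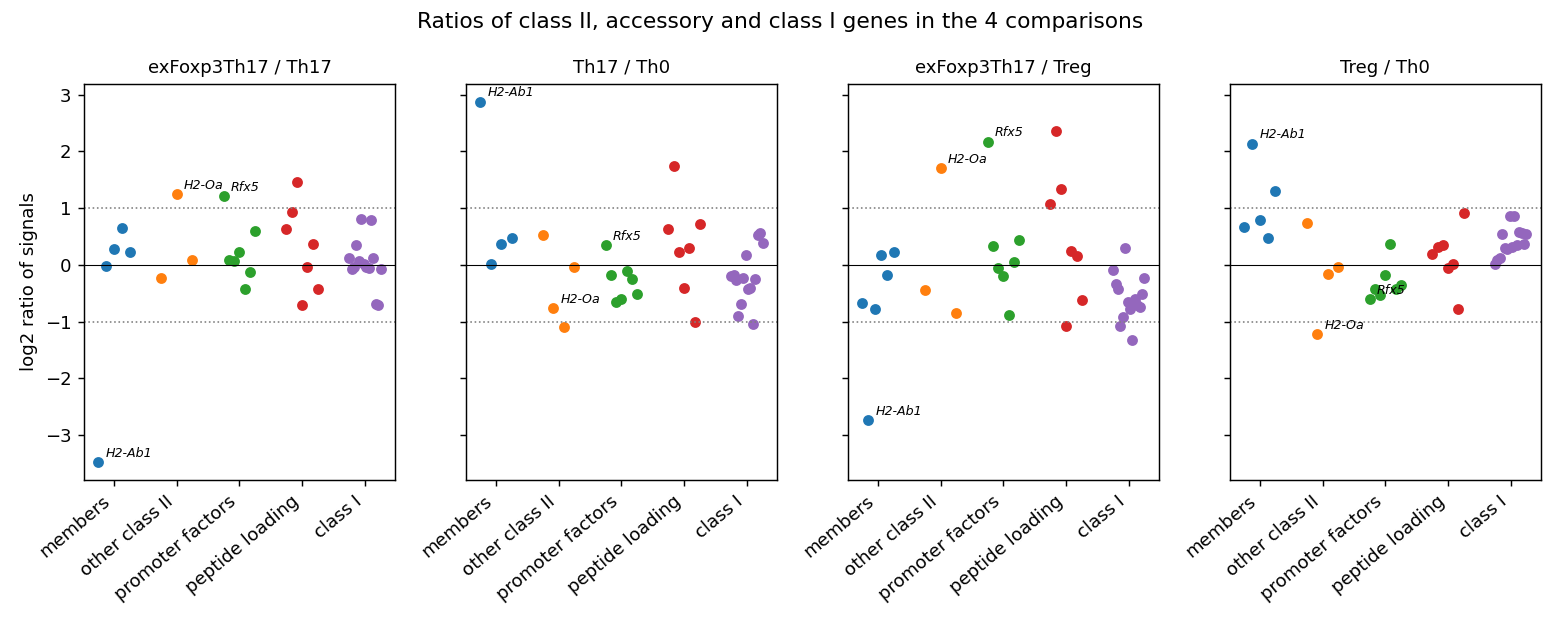
Log2 ratio of signals (y axis) in the 4 comparisons for the 6 members, other class II genes, promoter factors, peptide loading genes and class I genes; each point is a gene above the floor on at least 1 of the 2 arrays and dotted lines mark 2-fold. H2-Ab1 lies beyond every other gene plotted in the first 2 panels, at -3.48 and 2.88, while Rfx5 (1.21) and H2-Oa (1.24) lie on the other side of 0 in the first.

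At the cell surface, Cd83 shields class II from removal by the ubiquitin ligase Marchf1. Cd83 read 6.93 in exFoxp3Th17, 44.9 in Th17, 25.02 in Treg and 20.7 in Th0. It was at least 3.71-fold lower in exFoxp3Th17 than in Th17, at least 2.07-fold lower than in Treg, and 2.17-fold higher in Th17 than in Th0. Marchf1 was below the floor on all arrays, and the related ligase Marchf8 read 29.8 in exFoxp3Th17, 35.6 in Th17, 24.7 in Treg and 10.5 in Th0. Marchf8 was at least 2.94-fold higher in Th17 than in Th0 and at least 2.04-fold higher in Treg than in Th0.

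Antigen-presenting cells display costimulators next to class II. Cd86, a ligand of CD28 and CTLA-4, read 20.02 in exFoxp3Th17, 589 in Th17, 64.1 in Treg and 18.004 in Th0. It was 29.4-fold lower in exFoxp3Th17 than in Th17, 32.7-fold higher in Th17 than in Th0, 3.202-fold lower in exFoxp3Th17 than in Treg and 3.56-fold higher in Treg than in Th0, and its other probe set went the same way by 2-fold or more in each. Pdcd1lg2, the PD-1 ligand PD-L2, read 13.3 in exFoxp3Th17, 55.6 in Th17, 49.9 in Treg and 13.3 in Th0. Like H2-Ab1, both genes were higher in Th17 and Treg than in exFoxp3Th17 and Th0. Cd86 in Treg, however, lay closer to its level in exFoxp3Th17 and Th0 than to that in Th17. Cd80 was highest in Treg (89.2) and read 18.7 in exFoxp3Th17, 29.7 in Th17 and 32.8 in Th0. Cd40 was instead high in both Th17 cultures, at 116 in exFoxp3Th17 and 102 in Th17, with 16.9 in Treg and 5.52 in Th0. Cd274, the PD-1 ligand PD-L1, at 30.1 to 58.0, and Icosl, the ligand of ICOS, at 16.7 or less, were not called. In exFoxp3Th17 against Th17, 2 of 6 costimulators were lower (7.27% of all genes), and in Th17 against Th0 3 were higher (8.22% of all genes). In exFoxp3Th17 against Treg 3 were lower and 1 higher (9.94% and 11.3% of all genes). In Treg against Th0 3 were higher (5.56% of all genes).

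H2-Ab1 was thus higher in Th17 than in Th0, both from naive precursors, and lower in exFoxp3Th17 than in Treg, both from Foxp3+ precursors. Of all genes, 1.36% (160 of 11769) were likewise higher in Th17 against Th0 and lower in exFoxp3Th17 against Treg. These 2 comparisons share no array, though their comparator cultures differ. In each, the sort gate changes along with the culture, and exFoxp3Th17 against Treg also crosses the difference in sex-linked RNA. Among the 82 genes of all the lists that were above the floor on any array, 4 had both of these calls: H2-Ab1, Cd83, Cd86 and Pdcd1lg2. Both calls of Cd83 were lost at 2 times the floor, where its log2 ratios were 0.89 and -0.05.

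The genes whose levels followed H2-Ab1 most closely were found by the root-mean-square difference of log2 signals over the 4 arrays, each gene centred on its own mean, among 8696 other genes that reached 48.4 on some array. The closest was Rhoq, which encodes a small GTPase, at 0.16, followed by Rgs1, a regulator of G protein signalling, at 0.21 and the cytokine Lta at 0.22. Rhoq read 80.6 in exFoxp3Th17, 762 in Th17, 397 in Treg and 99.8 in Th0. With 4 arrays this likeness describes the arrays and rests on no replicate. For H2-DMa the closest genes were Rxylt1 (0.0141), A430093F15Rik (0.0305) and the vesicle fusion gene Vamp7 (0.0306).

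**Figure D4:**
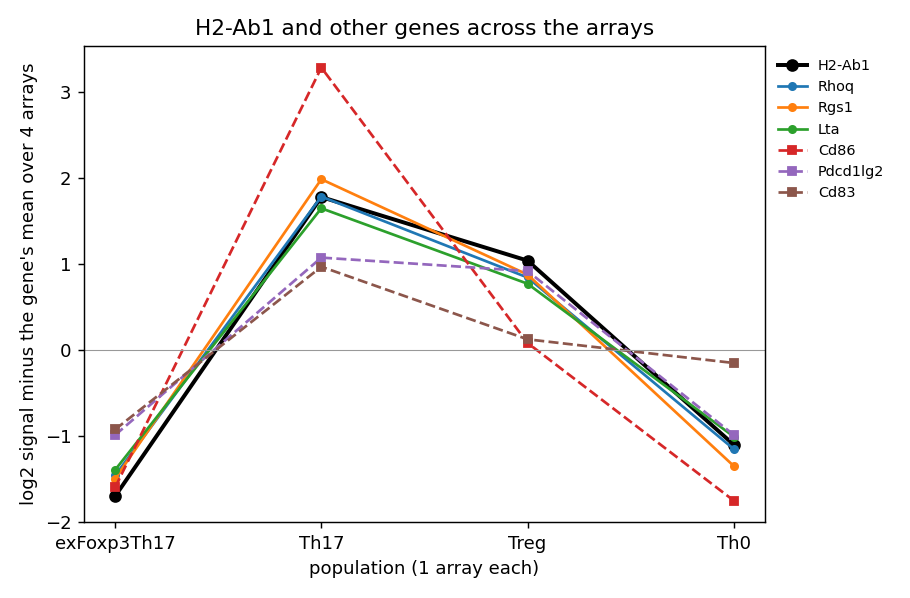
Log2 signal minus each gene's mean over the 4 arrays (y axis) by population, for H2-Ab1 (black), its 3 closest genes (solid lines) and Cd86, Pdcd1lg2 and Cd83 (dashed). All 7 genes are highest in Th17; Cd86 has the widest range of the 7, from 18.004 in Th0 to 589 in Th17.

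T cell proteins that bind class II or the invariant chain were read as well. Lag3, an inhibitory receptor for class II, was below the floor in Th0 (1.73) and read 32.8 in exFoxp3Th17, 27.6 in Th17 and 21.4 in Treg, at least 2.28-fold higher in Th17 than in Th0. Mif, a ligand of CD74, was lower in exFoxp3Th17 (1687) than in Th17 (3495) and Treg (3511), by 2.07-fold and 2.08-fold. Cxcr4, a partner of CD74, was 4.26-fold higher in Th17 (545) than in Th0 (128). Cd4 was 2.03-fold higher in exFoxp3Th17 than in Treg and 2.27-fold lower in Treg than in Th0, with its other probe set in the same direction by less than 2-fold. Cd44, which signals with CD74, stayed between 559 and 988, and Cxcr2 was above the floor in Th17 alone (17.8).

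Since class II transcripts can come from a few antigen-presenting cells among the T cells, markers of those cells were read on each array. Of 9 measured dendritic cell markers, 0 were above the floor in exFoxp3Th17, 0 in Th17, 1 in Treg and 3 in Th0. Their summed signal was 28.2 in exFoxp3Th17, 43.0 in Th17, 58.2 in Treg and 68.7 in Th0. This sum and those of the other marker lists were taken without the floor. In exFoxp3Th17 and Th17 the dendritic cell sums thus hold only values below it. Of 11 macrophage and monocyte markers, 1 was above the floor in exFoxp3Th17, 2 in Th17, 2 in Treg and 3 in Th0, with sums of 54.3, 66.2, 64.0 and 124 in that order. The defining genes Flt3, Zbtb46 and Lyz2 were below the floor on all 4 arrays, Itgax reached 12.5 in Th0, Cd68 13.7 in Th17, and Csf1r read 12.6 in exFoxp3Th17, 17.5 in Th17, 16.8 in Treg and 23.4 in Th0. In Th17, where H2-Ab1 was highest, no dendritic cell marker was above the floor. The macrophage marker Adgre1 was called, at least 2.66-fold lower in Th17 (10.2) than in Th0 (32.2) and 2.51-fold lower in Treg (12.8) than in Th0. Cd68 was instead above the floor in Th17 alone. The part of dendritic cells and macrophages in the H2-Ab1 difference was not tested.

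Of 11 measured B cell markers, 3 were above the floor in exFoxp3Th17, 2 in Th17, 2 in Treg and 1 in Th0. Nearly all of their summed signal was Ighm, the immunoglobulin heavy chain, which read 959 in exFoxp3Th17, 807 in Th17, 2406 in Treg and 3316 in Th0. It was 4.11-fold lower in Th17 than in Th0 and 2.51-fold lower in exFoxp3Th17 than in Treg. Of 3 other Ighm probe sets above the floor, 2 went the same way in both comparisons and 1 did so by 2-fold. Without it the sums were 73.0 in exFoxp3Th17, 72.2 in Th17, 106 in Treg and 47.5 in Th0. Cd79a, Ms4a1 and Pax5 were below the floor on all 4 arrays. Cd79b read 19.3 in exFoxp3Th17, 5.03 in Th17, 55.6 in Treg and 9.64 in Th0, and was at least 4.59-fold higher in Treg than in Th0, the comparison in which Cd74 was also higher. It was also 2.88-fold lower in exFoxp3Th17 than in Treg. The brightest of 5 Ebf1 probe sets was above the floor in Th17 alone (30.1), at least 2.49-fold over exFoxp3Th17 and Th0, and 2 others went the same way by less than 2-fold. With the mean of all probe sets of a gene, no B cell marker was called in Th17 against Th0. The part of such cells in the H2-Ab1 and Cd74 differences was not tested.

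**Figure D5:**
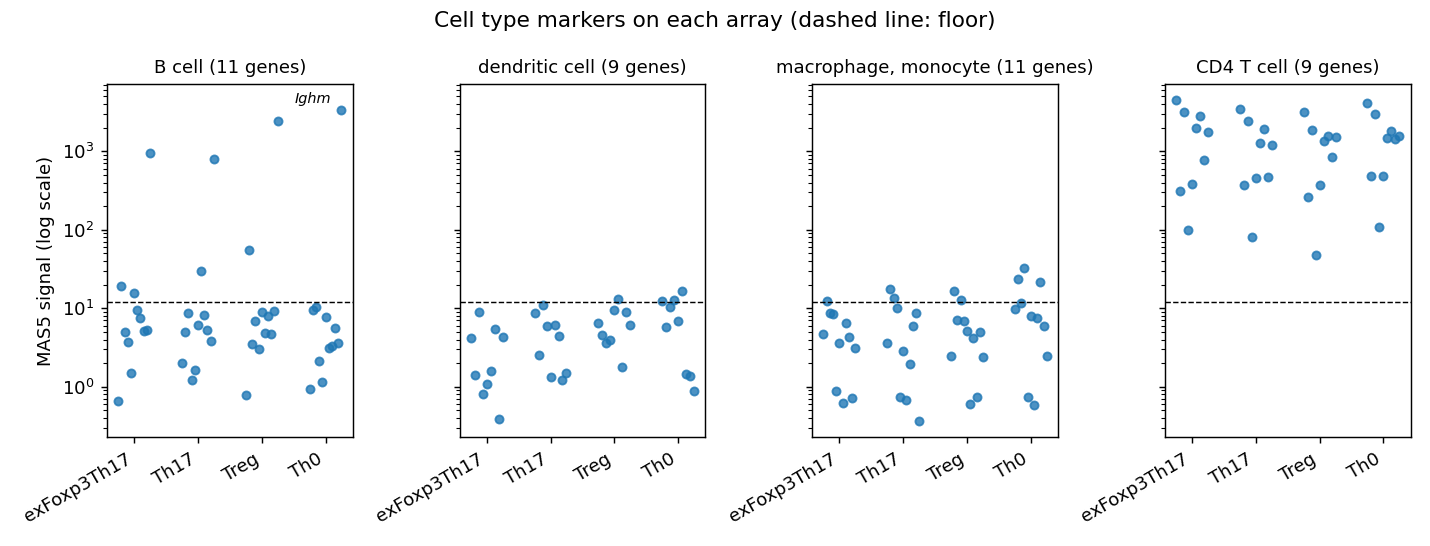
MAS5 signal (log scale) of B cell, dendritic cell, macrophage and monocyte, and CD4 T cell markers on each array; each point is a gene and the dashed line is the floor of 12.1. All 9 CD4 T cell markers are above the floor everywhere, while B cell, dendritic cell and macrophage markers other than Ighm mostly lie below it.

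Of the 5 measured markers of CD8 T and NK cells, 2 were called in any comparison, Klrd1 and Klrk1. Both were lower in exFoxp3Th17 against Th17 (7.27% of all genes) and higher in Th17 against Th0 (8.22%), Klrk1 by at least 2.66-fold in each. Klrd1 alone was higher in exFoxp3Th17 against Treg (11.3% of all genes) and lower in Treg against Th0 (4.95%). Above the floor were 2 of the 5 in exFoxp3Th17, 4 in Th17, 4 in Treg and 2 in Th0, with summed signals of 587, 1931, 118 and 339 in that order, most of it Klrd1 except in Treg. Klrd1, an NK receptor chain that activated T cells can also express, read 504 in exFoxp3Th17, 1801 in Th17, 32.1 in Treg and 256 in Th0. Klrk1 read 2.39 in exFoxp3Th17, 32.2 in Th17, 14.1 in Treg and 2.00 in Th0. Both were highest in Th17, as was H2-Ab1, and Klrd1 was lowest in Treg. Cd8b1 read 51.7 to 83.5, Cd8a stayed between 11.1 and 14.3, and Ncr1, an NK cell receptor, was below the floor on all 4 arrays. Their part in the H2-Ab1 difference was not tested.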

How the data were processed

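Total RNA (1 µg per sample) from 4 sorted populations was labelled with biotin and hybridised to Affymetrix arrays, 1 per population, per the labels. Each deposited table holds linear signal intensities from the authors; the submitters' processing notes name MAS5 without a version. The authors' scaling was kept: the mean after leaving out 2% of probe sets at each end was 100.0 on each array. Of 45037 non-control probe sets, 34945 have 1 gene symbol, 932 several and 9160 none in the platform annotation; those with several named no gene. Symbols were updated through a RefSeq gene table (GRCm38.p6), which held 34741 of the single-gene probe sets.

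Values below the floor of 12.1 were set to it, and log2 ratios were taken in Python 3.11.15 with numpy 2.4.6 and pandas 2.3.3. A gene was read from the probe set with the highest mean log2 signal. Calling of genes was checked with simulated arrays. The number of arrays limits the precision: with 1 array per population there is no replicate error and no test. The 6 members and the 13 other lists were chosen with earlier results of these data known. The genes named are all members, the list genes called in any comparison, the 2 brightest others of each list that is not of cell type markers, the closest genes by level, the defining cell type markers and any marker called. Named outside this rule, with their values seen, were H2-Ea, H2-D1, Nlrc5, Pax5, Cd8a, Cd8b1, Ncr1 and the genes that check the array labels. The promoter stretches of H2-Eb2, H2-Oa and H2-Ob, and the neighbours of H2-Ab1, were added after the values were seen. The alternatives were another floor, scaling, probe set, fold threshold or naming rule.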

Additional observations from a re-analysis of the deposited data

Results flagged for a closer look

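Between the Th17 culture and its comparator, 4 of 82 list genes above the floor on any array differed in opposite directions in the 2 precursors. Each was called higher in Th17 against Th0 and lower in exFoxp3Th17 against Treg. Of all 11769 genes, 160 (1.36%) had both of these calls and 137 had the reverse pair. Each side is 1 array against 1 array, so the difference between the 2 effects was not tested. The comparator cultures (Th0 conditions, and IL-2) also differ, and the sort gate changes along with the culture on each side. The comparison of exFoxp3Th17 with Treg also crosses the difference in sex-linked RNA. For H2-Ab1 the log2 ratios were 2.88 and -2.74, a difference of 5.62. For Cd86 they were 5.03 and -1.68, a difference of 6.71. For Pdcd1lg2 they were 2.06 and -1.91, a difference of 3.97. For Cd83 they were 1.12 and -1.05, a difference of 2.17, and the second is a bound because the exFoxp3Th17 signal lay below the floor. Both calls stood under 11 of 11 alternatives for H2-Ab1, 10 for Cd86, 10 for Pdcd1lg2 and 7 for Cd83.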

How the results depend on the processing

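H2-Ab1 kept its direction and stayed beyond the fold threshold in all 4 comparisons under all 11 alternatives, with log2 ratios of -3.61 to -2.18 in exFoxp3Th17 against Th17, 2.18 to 2.99 in Th17 against Th0, -2.83 to -1.44 in exFoxp3Th17 against Treg and 1.44 to 2.29 in Treg against Th0. The higher Cd74 of Treg against Th0 was called under 7 of the 11, and its log2 ratio was 0.77 at 2 times the floor, 0.00 at 4 times and 0.89 with the floor as a pseudocount. Members called in exFoxp3Th17 against Th17 numbered 2 at 0.5 times the floor (with Ciita, at 1.22) and 2 at 1.5-fold (with Cd74). In exFoxp3Th17 against Treg they numbered 2 at 0.5 times the floor and 2 with the pseudocount (both with H2-Aa), and 3 at 1.5-fold. In Treg against Th0 they numbered 4 at 0.5 times the floor and 4 at 1.5-fold (with H2-Aa and H2-Eb1), and 1 at 2 times the floor, 4 times the floor, 3-fold and with the pseudocount. In Th17 against Th0 the count was 1 throughout. No called member changed direction. Both Cd83 calls were lost at 2 and 4 times the floor, at 3-fold and with the pseudocount, and at 4 times the floor Cd86 lost its lower call in exFoxp3Th17 against Treg (-0.41) and Pdcd1lg2 lost both calls (0.20 and -0.04). Of 572 list counts under alternatives, 439 stayed within 1.5 times and 133 did not. Over all genes, the counts at 3-fold were 304 higher and 341 lower in exFoxp3Th17 against Th17, 475 and 275 in Th17 against Th0, 555 and 539 in exFoxp3Th17 against Treg and 301 and 169 in Treg against Th0; at 1.5-fold they were 2136 and 1738, 1813 and 2019, 2647 and 2152, and 1409 and 1562. At 4 times the floor the counts that moved by over 1.5 times were 518 higher in exFoxp3Th17 against Th17, 580 and 484 in Th17 against Th0, 864 and 774 in exFoxp3Th17 against Treg and 347 and 340 in Treg against Th0, and at 0.5 times the floor 1221 lower in Th17 against Th0 and 888 lower in Treg against Th0. Quantile and equal-median scaling bring the median of all genes close to 0 by construction, and moved it by less than 0.1 in log2. In exFoxp3Th17 against Th17, 880 higher and 856 lower became 780 and 930 with quantile scaling and 768 and 942 with equal medians. Against Treg, 1328 and 1170 became 1193 and 1273, and 1151 and 1306. The excess of higher calls thus turned into an excess of lower calls in both, but not in Th17 or Treg against Th0. Signals near the floor limit what can be said of H2-Aa, H2-Eb1 and Ciita. No paired analysis was possible because each population has 1 array.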
